A study of Mus musculus with 2 samples.

Results

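Lung group 2 innate lymphoid cells (ILC2s) that carried Il2 transcripts were described here. They were chosen by a measured value: barcodes were kept where 500 or more genes were detected and mitochondrial transcripts made up no more than 10%, and of these the ones with at least 1 unique molecular identifier (UMI, a counted transcript molecule) of Il2 were taken. This gave 3480 Il2-positive barcodes out of 15481, of which 1671 of 8394 came from the WT library and 1809 of 7087 from the Pac1-/- library. Because Il2 chose these cells, the Il2 level itself is a description, and the other genes were compared with Il2-zero barcodes of the same library and of like depth.

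The study asked how loss of PAC1, a phosphatase encoded by Dusp2, changes ILC2s. 1 WT and 1 Pac1-/- sample of C57BL/6J mice were made from lung cells of 4 to 5 pooled mice, aged 6 to 8 weeks, depleted of other lineages and sorted as lineage-negative CD90.2+ ST2+ Sca-1+ cells; no treatment of these cells is named. No label ties a barcode to a mouse. With 1 library per genotype, genotype and library cannot be told apart, no p-value was computed, and all 95% intervals cover counting error only, not the spread between cells or mice. The libraries held 10866 and 9495 barcodes with 56182065 and 60283285 UMIs, and shared 29 barcode sequences. The targeted gene went with the labels: Il2-positive barcodes held 545 Dusp2 UMIs in WT and 2 in Pac1-/-.

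IL-2 is a growth and survival factor of lymphocytes and is best known as a product of activated T cells. Its gene is switched on within hours of a calcium signal, when calcineurin frees NFAT to act with AP-1 (Fos and Jun proteins) and NF-kB at the Il2 promoter, and the signal is limited by ERK phosphatases, by repressors such as Ikaros family proteins and CREM, and by proteins that degrade AU-rich cytokine mRNA. In ILC2s, which lack antigen receptors, IL-33 and other alarmins give the activating signal, and IL-2 itself promotes their growth through the high-affinity receptor. CGRP, the peptide made from Calca, acts on ILC2s through cAMP.

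Il2 lies on chr3:37120523-37125959 (GRCm38, minus strand). The 250 bases before the RefSeq start sites are shown for Il2 and for Tnf, Tagap and Csf2, which are activation genes described below, because start-proximal sequences are where the activation factors are known to act. They were taken from RefSeq (GRCm38.p6) for 4 of 6 genes looked for; Cd69 and Egr3 had no entry. Each is written 5′ to 3′ on the strand of the gene, and capitals mark GGAAA on either strand (as TTTCC on the other), the core that NFAT recognizes.
Il2, chr3:37125955-37126204, minus strand: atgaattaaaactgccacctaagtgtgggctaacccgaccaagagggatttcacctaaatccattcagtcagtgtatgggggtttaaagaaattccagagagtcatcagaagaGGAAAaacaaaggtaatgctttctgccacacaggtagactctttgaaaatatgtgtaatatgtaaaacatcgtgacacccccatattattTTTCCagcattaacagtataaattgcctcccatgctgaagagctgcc
Tnf, chr17:35202008-35202257, minus strand: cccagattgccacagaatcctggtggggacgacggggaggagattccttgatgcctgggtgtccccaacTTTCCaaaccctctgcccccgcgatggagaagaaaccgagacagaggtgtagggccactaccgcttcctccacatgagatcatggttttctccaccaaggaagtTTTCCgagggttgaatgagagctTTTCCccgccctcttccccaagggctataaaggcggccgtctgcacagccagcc
Tagap, chr17:7925750-7925999, plus strand: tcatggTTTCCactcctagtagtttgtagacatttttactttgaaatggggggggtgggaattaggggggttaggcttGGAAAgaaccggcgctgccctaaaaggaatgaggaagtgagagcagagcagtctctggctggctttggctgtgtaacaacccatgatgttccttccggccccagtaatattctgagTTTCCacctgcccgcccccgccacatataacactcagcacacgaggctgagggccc
Csf2, chr11:54249900-54250149, minus strand: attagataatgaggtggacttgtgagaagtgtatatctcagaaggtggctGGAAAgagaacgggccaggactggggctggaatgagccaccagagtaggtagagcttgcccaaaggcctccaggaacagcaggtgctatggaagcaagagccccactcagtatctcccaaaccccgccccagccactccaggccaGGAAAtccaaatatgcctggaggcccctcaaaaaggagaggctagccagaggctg
The Il2 and Csf2 windows held 2 matches each, and the Tnf and Tagap windows 3 each. At least 1 match was present in 55.6% of 32851 promoter windows of this length, at least 2 in 21.4% and at least 3 in 6.39%. TGANTCA, the AP-1 consensus, had no match in the 4 windows and one or more in 6.75% of all. A match describes letters and not a bound site. The Csf2 window begins upstream of the gene's 5′ end, chr11:54249667 in the annotation used for the positions, so the bases between are not in it. Antisense genes overlap Csf2, Tagap and Il5, and Adad1 overlaps Il2 on the other strand; whether counting used strand is not given in the sources used here.

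Most Il2-positive barcodes held 1 Il2 UMI, and the counts were uneven. In WT, 986 of the 1671 Il2-positive barcodes (59.0%) had 1 Il2 UMI, 306 had 2 and 379 had 3 or more, with a maximum of 36. In Pac1-/-, 1055 of 1809 (58.3%) had 1, 322 had 2 and 432 had 3 or more, with a maximum of 32. The tenth of Il2-positive barcodes with the highest counts held 35.8% of the Il2 UMIs in WT and 37.9% in Pac1-/-. With each kept barcode thinned to 2000 UMIs, the variance of the Il2 count exceeded its mean. It was 0.217 against 0.124 in WT and 0.215 against 0.128 in Pac1-/-. At the threshold, a barcode with 0 Il2 UMIs had a median depth of 3948 UMIs in WT and 5125.5 in Pac1-/-, and one with 1 Il2 UMI had 6264.5 and 7456. Il2-positive barcodes were therefore deeper than the rest, with medians of 7898 and 9714 UMIs.

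The share of Il2-positive barcodes climbed with depth, and the Il2 level per UMI was higher in deep barcodes. Below 2000 UMIs, 4.81% of WT barcodes (95% interval 3.52 to 6.41) and 5.67% of Pac1-/- barcodes (3.98 to 7.80) held Il2. At 20000 UMIs or more, the share was 69.0% (64.2 to 73.5) in WT and 71.4% (67.4 to 75.2) in Pac1-/-. The level in CPM (Il2 UMIs scaled to a common library total), over all barcodes of a bin, was 43.0 and 52.9 CPM in the lowest bin and 82.2 and 78.6 CPM in the highest. The lowest level in Pac1-/- was 45.7 CPM at 2000 to 4000 UMIs and the highest 80.1 CPM at 12000 to 20000. Predicted doublets made up 19.3% of WT and 16.9% of Pac1-/- Il2-positive barcodes against 6.05% and 4.40% of Il2-zero ones, and their part in this difference was not tested.

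**Figure D1:**
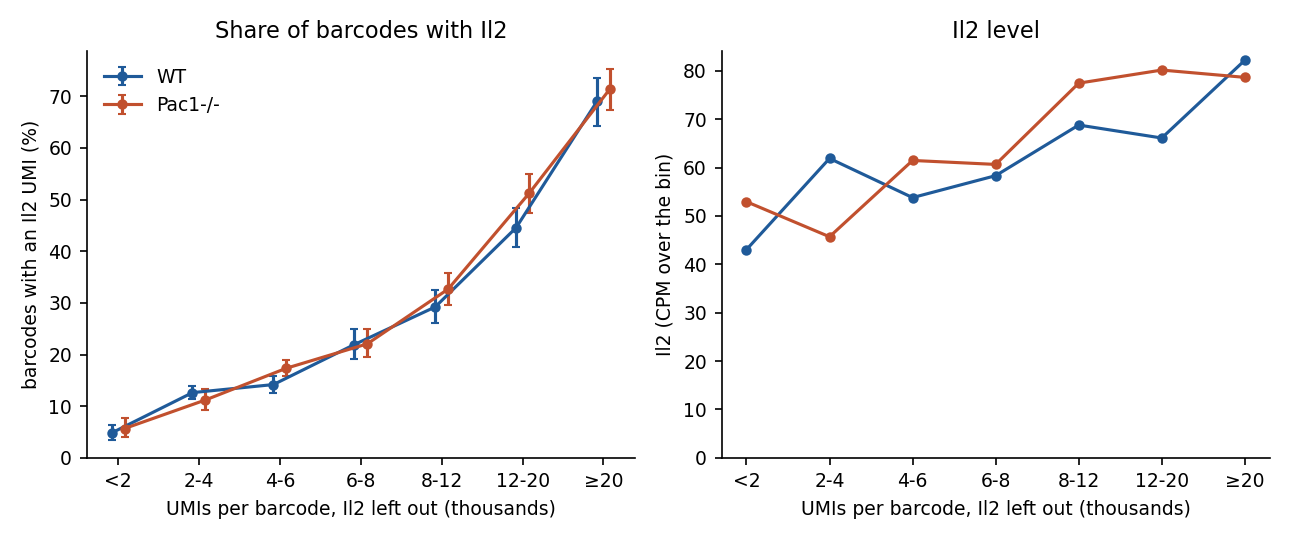
Left, percent of kept barcodes with at least 1 Il2 UMI, with exact 95% intervals, and right, Il2 CPM, both by UMIs per barcode with Il2 left out, in each library. The share rises from under 6% to about 70% in both libraries, and the level from 43.0 to 82.2 CPM in WT.

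Between the libraries Il2 differed little once depth was taken into account. As counted, 19.9% of WT (19.1 to 20.8) and 25.5% of Pac1-/- barcodes (24.5 to 26.6) were Il2-positive. Thinned to 2000 UMIs each, with 914 and 617 shallower barcodes left out, 9.10% of WT (8.46 to 9.78) and 9.88% of Pac1-/- barcodes (9.16 to 10.6) had Il2, and these intervals overlap. Over all kept barcodes Il2 stood at 65.9 CPM (63.8 to 68.1) in WT and 71.1 CPM (68.9 to 73.3) in Pac1-/-, a log2 ratio of 0.11 (0.04 to 0.17). As a background for free RNA, barcodes with at least 3 B cell, epithelial, endothelial or stromal markers held Il2 in 3 of 19 in WT and 6 of 41 in Pac1-/- at median depths of 4071 and 4266 UMIs. These shares, 15.8% (3.38 to 39.6) and 14.6% (5.57 to 29.2), are no lower than the 14.2% and 17.3% of all kept barcodes at 4000 to 6000 UMIs beyond counting error, and after thinning 0 of 15 (upper bound 21.8%) and 2 of 36 (5.56%, 0.680 to 18.7) held Il2. With so few such barcodes, a single Il2 UMI cannot be read as expression by that cell.

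At least 3 of 12 ILC2 markers were detected in 99.9% of WT and 99.8% of Pac1-/- Il2-positive barcodes, while single markers ranged widely. Gata3, the lineage factor, was detected in 93.9% of WT and 96.2% of Pac1-/- Il2-positive barcodes, and Il1rl1, which encodes ST2, in 96.6% and 96.8%. Other markers were detected less often, such as Thy1 (69.0% and 68.5%), Klrg1 (69.1% and 63.0%) and Il17rb (48.3% and 55.0%). Ly6a, which encodes the sort marker Sca-1, was lower than in matched barcodes (-0.19 in both libraries) and detected in 47.4% and 73.4%, and it was the 1 marker of the list that passed the 1.1-fold rule described below. All 12 ILC2 markers were detected in both libraries, and their sum was 8417 CPM in Il2-positive against 8577 CPM in matched WT barcodes and 7461 against 7394 CPM in Pac1-/-. T cell receptor constant and CD3 transcripts were present, as in the Il2-zero barcodes: the 14 T cell markers summed to 736 against 708 CPM in WT and 1016 against 1017 CPM in Pac1-/-. Members of this sum differed. In Pac1-/-, Cd3e (-1.06, -1.43 to -0.71) and Cd3g (-0.30, -0.39 to -0.21) were lower in Il2-positive barcodes. Their WT ratios were 0.08 and 0.02, and Trbc1 was at 0.12 in WT and 0.14 in Pac1-/-. Cd8a and Cd8b1 had 0 UMIs in Il2-positive barcodes of both libraries, as did Cd4 and Foxp3 in WT. At least 2 of Cd3d, Cd3e, Cd4, Cd8a, Cd8b1 and Cd5 were found in 22 WT and 17 Pac1-/- kept barcodes, of which 12 and 9 were Il2-positive, a larger part than the 19.9% and 25.5% of all kept barcodes. This difference was not tested, and depth, with which the Il2-positive share climbed, was not matched.

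To compare other genes at matched depth, each Il2-positive barcode was paired with the unused Il2-zero barcode of its library nearest in UMIs. Median depth was then 7897 against 7897 UMIs in WT and 9712 against 9056 in Pac1-/-, but the deepest barcodes lacked partners, with 90th percentiles of 25677 against 18174 and 28356 against 18723 UMIs, and 29.8% and 46.0% of pairs differed by over 10%. Predicted doublets made up 19.3% of Il2-positive and 17.6% of matched barcodes in WT, and 16.9% and 11.0% in Pac1-/-. Of 11203 genes with at least 30 UMIs in each library, 1 was more than 2-fold higher in both libraries (0.00893% of those compared) and 10 were more than 2-fold lower (0.0893%). The ratios over the partners were thus small: the named genes below mostly lie within 1.5-fold. Because the Il2-positive share climbed with depth, a count of 0 does not show that a cell lacked Il2. How far this bears on the ratios was not tested. A smaller threshold, at least 1.1-fold in the same direction in both libraries with both intervals leaving out 0, was set after the data were seen; 66 genes were higher (0.589%) and 135 lower (1.21%), and the median gene stood at a log2 ratio of 0.01 and -0.01.

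The activation genes looked for were higher in Il2-positive barcodes, in both libraries for Tnf, Cd69 and Egr3. Tnf, an inflammatory cytokine, was at 139 CPM (134 to 145) against 111 CPM (106 to 117) in WT and at 108 CPM (104 to 112) against 89.5 CPM (85.3 to 93.9) in Pac1-/-, log2 ratios of 0.32 (0.23 to 0.41) and 0.27 (0.18 to 0.36). It was detected in 49.1% of Il2-positive and 38.2% of matched WT barcodes, and in 44.5% and 31.2% in Pac1-/-. The Il2-positive intervals lie above the matched ones in both libraries. Cd69, an early activation antigen that holds lymphocytes in tissue, was at 1585 against 1372 CPM in WT and at 1756 against 1484 CPM in Pac1-/- (0.21, 0.18 to 0.23, and 0.24, 0.22 to 0.26). Egr3, an NFAT-induced zinc finger factor, was at 130 against 100.7 CPM in WT and 85.9 against 71.5 CPM in Pac1-/- (0.37, 0.28 to 0.46, and 0.26, 0.17 to 0.36). Tagap, a GTPase-activating protein of activated lymphocytes, was at 50.6 against 39.6 CPM in WT (0.35, 0.21 to 0.50), while in Pac1-/- its 30.2 against 27.5 CPM gave an interval that includes 0 (0.13, -0.03 to 0.30). Tnf, Cd69 and Egr3 were all detected in 31.2% of Il2-positive (29.0 to 33.5) and 21.8% of matched WT barcodes (19.8 to 23.8), and in 25.5% (23.5 to 27.6) and 14.3% (12.7 to 15.96) in Pac1-/-. After thinning the shares were 4.30% against 3.01% and 1.92% against 1.18%, with overlapping intervals.

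The size of these ratios changed with the way barcodes were weighted or chosen. With every barcode thinned to 2000 UMIs, so that each counted alike, the Tnf log2 ratio was 0.55 in WT and 0.47 in Pac1-/-, and that of Tagap 0.41 and 0.49. Among barcodes between 2000 UMIs and 2 times the library median, it was 1.06 for Tnf, 0.40 for Cd69 and 0.83 for Tagap in WT, and 0.29, 0.26 and 0.32 in Pac1-/-. Weighting all Il2-zero barcodes to the depth of the Il2-positive ones put Tagap in Pac1-/- at -0.02. Under all 10 alternatives Tnf, Cd69 and Egr3 stayed above 0 in both libraries, with the lowest Tnf value, 0.05 in Pac1-/-, for barcodes with at least 2 Il2 UMIs. Among these, 2 intervals included 0, both in Pac1-/-: that Tnf value (-0.06 to 0.17) and thinned Egr3 (0.23, -0.02 to 0.48).

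Among the transcription factors, Fos, Jun and Atf3 and some NFAT and Egr target genes were higher, while the genes of NFAT and calcineurin did not pass the 1.1-fold rule. Fos was at 3092 against 2516 CPM in WT and 3335 against 2798 CPM in Pac1-/- (0.30 and 0.25), Jun had ratios of 0.19 and 0.21, and Atf3, a stress-induced partner of AP-1, 0.15 and 0.35. Of 11 AP-1 genes compared, these 3 passed the 1.1-fold rule upward and Batf, at -0.18 and -0.26, downward, with list medians of 0.03 and 0.14. After thinning, Batf was at -0.03 (-0.45 to 0.39) in WT and -0.07 (-0.46 to 0.31) in Pac1-/-. The WT list median turned direction under some alternatives. Fosb (0.09 and 0.18) and Junb (0.04 and 0.14) did not pass, nor did Egr1 (0.08 and 0.12), Egr2 (0.07 and 0.20) and Nr4a1 (0.06 and 0.20). Nr4a3, another NFAT and Egr target gene, was at -0.01 in both libraries. After thinning it was lower, at -0.15 (-0.23 to -0.06) in WT and -0.12 (-0.240 to -0.002) in Pac1-/-. Of 15 NFAT and Egr target genes compared, 5 were higher (Egr3, Cd69, Nr4a2 at 0.18 and 0.17, Bhlhe40 at 0.20 and 0.29, and Myc at 0.34 and 0.23) and 1, Tnfrsf9 (4-1BB), was lower at -0.54 and -0.47; the list medians were 0.09 and 0.16. Bhlhe40 is a repressor of IL-10 that favours cytokine production, and Myc drives growth. After thinning, Myc was at 0.48 (0.24 to 0.72) in WT and 0.13 (-0.11 to 0.37) in Pac1-/-. Thinned Tnfrsf9 was at -0.38 (-0.90 to 0.14) in WT and -0.32 (-1.09 to 0.44) in Pac1-/-, both within counting error. None of the 10 genes for NFAT and calcineurin themselves passed in either direction, with medians of 0.03 and -0.01. Of 14 NF-kB genes, Nfkbia, the inducible inhibitor, was higher (0.16 and 0.28) and Rela lower (-0.17 and -0.17), and the other 12 did not pass.

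**Figure D2:**
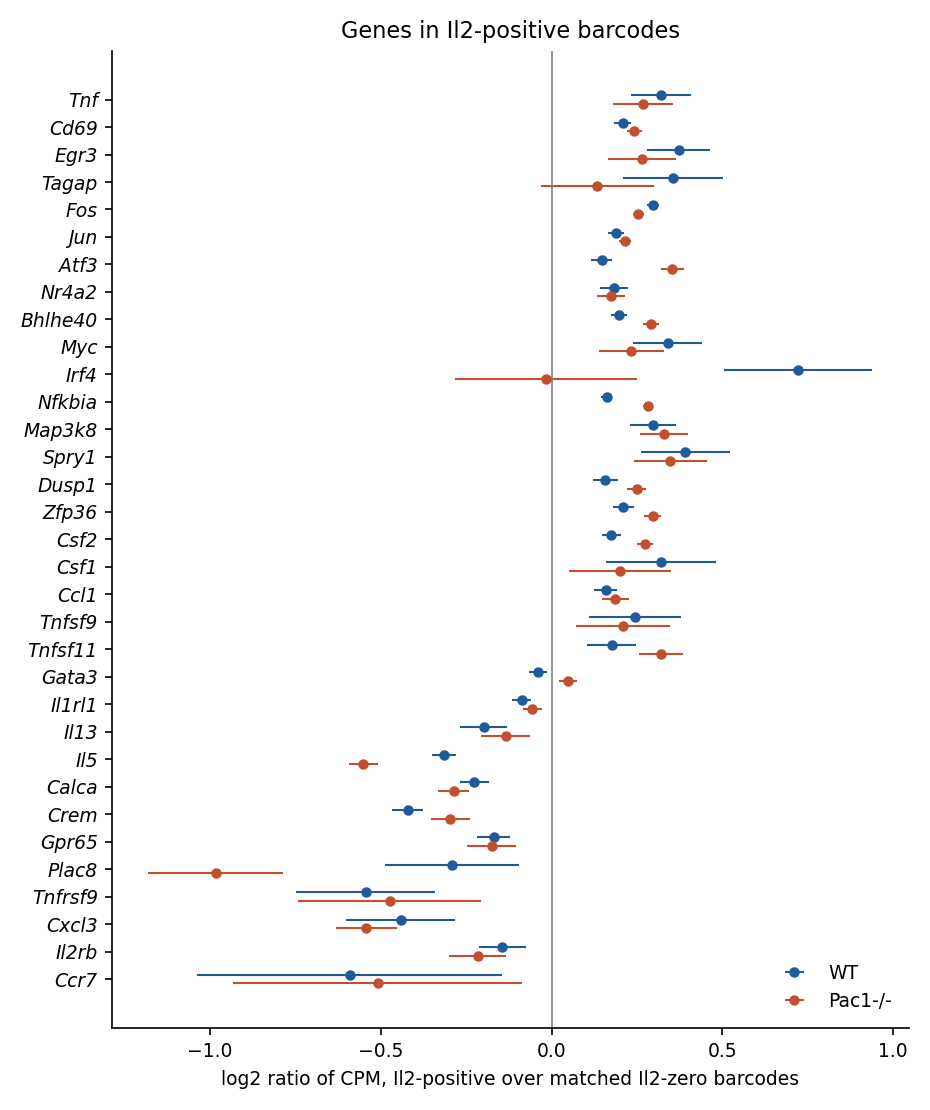
Log2 ratio of CPM in Il2-positive over depth-matched Il2-zero barcodes for named genes, with exact 95% counting intervals, in WT (blue) and Pac1-/- (red). Tnf, Egr3, Fos and Spry1 lie right of 0 and Il5, Calca, Crem and Cxcl3 left of 0 in both libraries, while Irf4 is at 0.72 in WT and -0.02 in Pac1-/-.

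Irf4, a factor of activated lymphocytes, had different ratios in the libraries over all Il2-positive barcodes. It was at 27.6 against 16.8 CPM in WT (0.72, 0.50 to 0.94) and at 11.0 against 11.1 CPM in Pac1-/- (-0.02, -0.28 to 0.25). It was detected in 17.2% of Il2-positive and 10.4% of matched WT barcodes, and in 7.63% and 6.03% in Pac1-/-. The intervals of the log2 ratios do not overlap, and the difference was not tested. Under the alternatives the WT value ran from 0.62 to 1.79 and the Pac1-/- value from -0.41 to 0.39.

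Signalling genes that restrain activation were among those higher in Il2-positive barcodes. Spry1, an inhibitor of ERK signalling, was at 65.6 against 50.04 CPM in WT and 78.4 against 61.7 CPM in Pac1-/- (0.39, 0.26 to 0.52, and 0.35, 0.24 to 0.45). Dusp1, an ERK and p38 phosphatase, had ratios of 0.16 and 0.25, whereas Dusp10 was lower (-0.20 and -0.27). Of 9 Dusp, Spry and Spred genes compared, these 3 were the only ones that passed. Map3k8, a kinase upstream of ERK, was at 235 against 191 CPM in WT and 184 against 146 CPM in Pac1-/- (0.30 and 0.33). Zfp36, which binds AU-rich elements and speeds decay of cytokine mRNA, was higher (0.21 and 0.30), as 1 of 8 genes of its list. Of 10 IL-2 repressor and anergy genes only Crem passed, and it was lower in Il2-positive barcodes: 395 against 528 CPM in WT and 206 against 253 CPM in Pac1-/- (-0.42, -0.47 to -0.38, and -0.30, -0.35 to -0.24). Ikzf1, Ikzf3, Zeb1 and Cblb lay between -0.17 and 0.11 in both libraries. Prdm1 was at 46.9 against 43.8 CPM in WT and 23.3 against 19.8 CPM in Pac1-/-. Its Pac1-/- ratio, 0.23, was the highest of the list in that library.

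Il2 went with some cytokines and against others. Csf2 (GM-CSF) was at 1288 against 1141 CPM in WT and 1669 against 1382 CPM in Pac1-/- (0.18, 0.15 to 0.20, and 0.27, 0.25 to 0.30), and Csf1 had ratios of 0.32 and 0.20. Il5, the eosinophil growth factor, was lower, at 658 against 818 CPM in WT and 346 against 508 CPM in Pac1-/- (-0.32, -0.35 to -0.28, and -0.55, -0.59 to -0.51). Il13, which acts on the airway epithelium, was at 178 against 204 CPM in WT and 143 against 157 CPM in Pac1-/- (-0.20 and -0.13), with a ratio in Pac1-/- short of the 1.1-fold rule. In Pac1-/- barcodes with at least 2 Il2 UMIs its direction turned (0.23). Il5 was found in 66.5% of Il2-positive and 67.6% of matched WT barcodes, and in 52.3% and 48.2% in Pac1-/-. After thinning these shares were 42.0% and 46.0% in WT and 25.1% and 27.8% in Pac1-/-. Il13 was found in 42.8% and 39.1% in WT and in 30.9% and 26.7% in Pac1-/-, and no order was read from these shares. Of 9 cytokines compared, Csf1 and Csf2 passed upward and Il5 downward. Il21, Il3, Il9, Il10 and Ifng had too few UMIs to compare.

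Of 9 TNF family ligands compared, 3 passed upward: Tnf, Tnfsf9 (4-1BB ligand; 0.24 and 0.21) and Tnfsf11 (RANKL; 0.18 and 0.32), with list medians of 0.18 and 0.12. Of 9 chemokines, Ccl1, a ligand of CCR8, passed upward at 0.16 and 0.19, and Cxcl3, a neutrophil attractant, downward at -0.44 and -0.54. Among 12 costimulatory and inhibitory receptors, Cd69 passed upward and Tnfrsf9 downward. As counted, the ligand and the receptor of the 4-1BB pair thus lay on opposite sides. The thinned Tnfrsf9 intervals included 0 in both libraries.

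Of the 9 genes listed as responding to CGRP, 5 were lower by the 1.1-fold rule and none higher. All 9 had ratios below 0 in both libraries, and the medians were -0.23 in WT and -0.19 in Pac1-/- (-0.38 and -0.32 after thinning). Calca itself was at 456 against 533 CPM in WT (-0.23, -0.27 to -0.18) and 326 against 398 CPM in Pac1-/- (-0.29, -0.33 to -0.24). Its detection went with the level in WT (58.7% against 63.3%) and not in Pac1-/- (53.5% against 48.3%, and 28.3% against 28.1% after thinning). Crem was in 55.3% against 49.0% of Pac1-/- barcodes as counted, and in 23.8% against 25.3% after thinning. No order was read from these shares. The other 4 that passed were Crem, Tnfrsf9, Gpr65, an acid-sensing receptor coupled to cAMP (-0.17 and -0.18), and Plac8 (-0.29 and -0.98). Of these, Tnfrsf9 was within counting error after thinning in both libraries. Lmo4, Pde4d, Perp and Icos had ratios from -0.49 to -0.07. This list goes back to genes the study chose, and earlier results on it were known. The receptor genes for CGRP did not share the pattern: Calcrl was at 0.09 in both libraries and Ramp1 at 0.08 and 0.12, and none of 11 alarmin and neuropeptide receptors passed in either direction.

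The genes by which a cell receives IL-2 differed little. Il2rb, the receptor beta chain, was lower at -0.14 and -0.22, and the other 13 genes of the IL-2 receptor and STAT5 list did not pass. Il2ra, the alpha chain, had -0.08 and 0.04, Il2rg -0.01 and 0.02, and Cish, a STAT5 target, 0.09 and 0.15. Among 11 resting and trafficking genes, Klf6 was higher (0.21 and 0.26) and Ccr7 lower (-0.59 and -0.51, from 4.10 and 3.75 CPM in Il2-positive barcodes).

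Ranked by the ratio shared by both libraries, the genes highest in Il2-positive barcodes were Vangl2, Il17f, Hspb1, Gm14636, Spry1, Gm26802, Map3k8, Gm16310, Trim5, Tnf, Egr3, Fos, Dyrk3, Plk3 and Gm10138. Vangl2, a planar cell polarity gene and the gene more than 2-fold higher in both, had 38 against 8 UMIs in WT and 81 against 29 in Pac1-/-. Its thinned Pac1-/- ratio was 0.49 (-1.39 to 2.48). Without predicted doublets, no gene was more than 2-fold higher in both libraries. Hspb1, a small heat shock protein, had ratios of 0.96 (0.66 to 1.26) and 0.55 (0.37 to 0.73). Il17f rested on 41 and 28 UMIs in 13 and 7 Il2-positive barcodes, and after thinning its WT ratio was -0.49 (-2.48 to 1.39) and no Pac1-/- UMI was left. Thinned ratios were also within counting error for Gm16310 (0.51 and 0.06) and Trim5 (0.07 and 0.33). In Pac1-/- the same held for Plk3 (0.10, -0.25 to 0.45), Dyrk3 (0.29) and Egr3 (0.23). Hspb1, Gm14636, Spry1, Gm26802, Map3k8, Tnf, Fos and Gm10138 stayed higher in both libraries beyond counting error. Among the non-coding genes, Gm14636 (chrX:19156981-19167241; 0.48 and 0.70) and Gm26802 (chr7:19298260-19300770, next to Fosb; 0.33 and 0.41) were higher, Gm10138 overlaps Ivns1abp on the other strand and Gm16310 lies within Mrps6.

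The 10 genes more than 2-fold lower were Mfap4, Mgp, Inmt, Fmo2, Ifi27l2a, Bgn, Sparc, Gpx3, Gsn and Apoe, most of them genes of stromal cells, and several rested on few barcodes. Mgp, a matrix protein, had 11 against 120 UMIs in WT and 36 against 244 in Pac1-/-, and 93.3% and 87.3% of the matched UMIs lay in 5 barcodes. Ifi27l2a, an interferon-induced gene, was spread more widely in Pac1-/-, with 625 matched UMIs over 44 barcodes. The 5 stromal markers summed to 4 UMIs in WT Il2-positive barcodes against 62 in matched ones, and to 9 against 56 in Pac1-/-. In Pac1-/- the epithelial (34.5 against 120 CPM), erythroid (179 against 538 CPM) and NK cell lists (5.10 against 15.6 CPM) were also lower in Il2-positive barcodes, and their part in these genes was not tested. A single matched barcode held 1449 of the 2246 epithelial, 5214 of the 10073 erythroid and 94 of the 292 NK cell UMIs, and in WT the erythroid sum was 106 against 99.1 CPM. The WT epithelial list was at 24.5 against 29.6 CPM (-0.27, -0.46 to -0.08), and Scgb1a1 of this list was lower in both libraries (-0.55 and -2.74). With barcodes of other cell types left out, 1 gene was more than 2-fold lower and 1 higher in both libraries.

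Genes ranked in one library were read in the other, which took no part in ranking them. Of the 50 genes most above their partners in WT by the lower bound of the interval, 28 were above 0 in Pac1-/- (46.8% of all genes were) and 12 had an interval above 0 (5.70% of all), while 5 had an interval below 0. Of the 50 most above in Pac1-/-, 38 were above 0 in WT (51.9% of all) and 21 had an interval above 0 (6.56% of all). For the 50 lowest, 42 chosen in WT and 30 chosen in Pac1-/- were on the same side in the other library (53.2% and 48.1% of all genes were), 22 and 19 had intervals below 0 (8.40% and 6.73% of all), and 1 and 4 had intervals above 0. The median ratio in the library not used was 0.06 and 0.17 for the higher genes.

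Among Il2-positive barcodes some genes went with the number of Il2 UMIs and others did not. Each class of Il2 count was matched to Il2-zero barcodes of its own depth. Csf2 had a log2 ratio of 0.01 (-0.03 to 0.05) in WT barcodes with 1 Il2 UMI and 0.50 (0.44 to 0.57) in those with 5 or more, and -0.04 and 0.56 in Pac1-/-. Ccl1 went from 0.04 to 0.39 in WT and from -0.14 to 0.74 in Pac1-/-, and Map3k8 from 0.20 to 0.61 and from 0.23 to 0.58. For these 3 genes the classes of 1 and of 5 or more do not overlap in their intervals. Cd69 went from 0.08 (0.04 to 0.11) to 0.38 (0.32 to 0.44) in WT and from 0.11 (0.08 to 0.14) to 0.20 (0.16 to 0.25) in Pac1-/-. Tnf did not follow: it was 0.30 and 0.29 with 1 Il2 UMI, and 0.10 (-0.10 to 0.31) and 0.01 (-0.20 to 0.21) with 5 or more. In Pac1-/- its intervals also included 0 with 2 (0.11) and with 3 or 4 Il2 UMIs (0.02). Egr3 (0.12 to 0.92) and Myc (0.12 to 0.84) were far apart between these classes in WT and close in Pac1-/- (0.19 to 0.19 and 0.12 to 0.17). Irf4 in Pac1-/- was -0.81 (-1.24 to -0.39) with 1 Il2 UMI and 0.91 (0.37 to 1.48) with 5 or more, on 200 barcodes. In WT it was 0.68 (0.37 to 0.98) and 1.11 (0.61 to 1.64), so the intervals of the libraries were apart with 1 Il2 UMI and overlapped with 5 or more, as they did with 2 (0.35 and 0.14) and with 3 or 4 (0.67 and 0.28). Il5 and Calca were below 0 in all classes of both libraries, from -0.81 to -0.02 and from -0.50 to -0.18, although the Il5 interval for WT barcodes with 3 or 4 Il2 UMIs included 0.

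**Figure D3:**
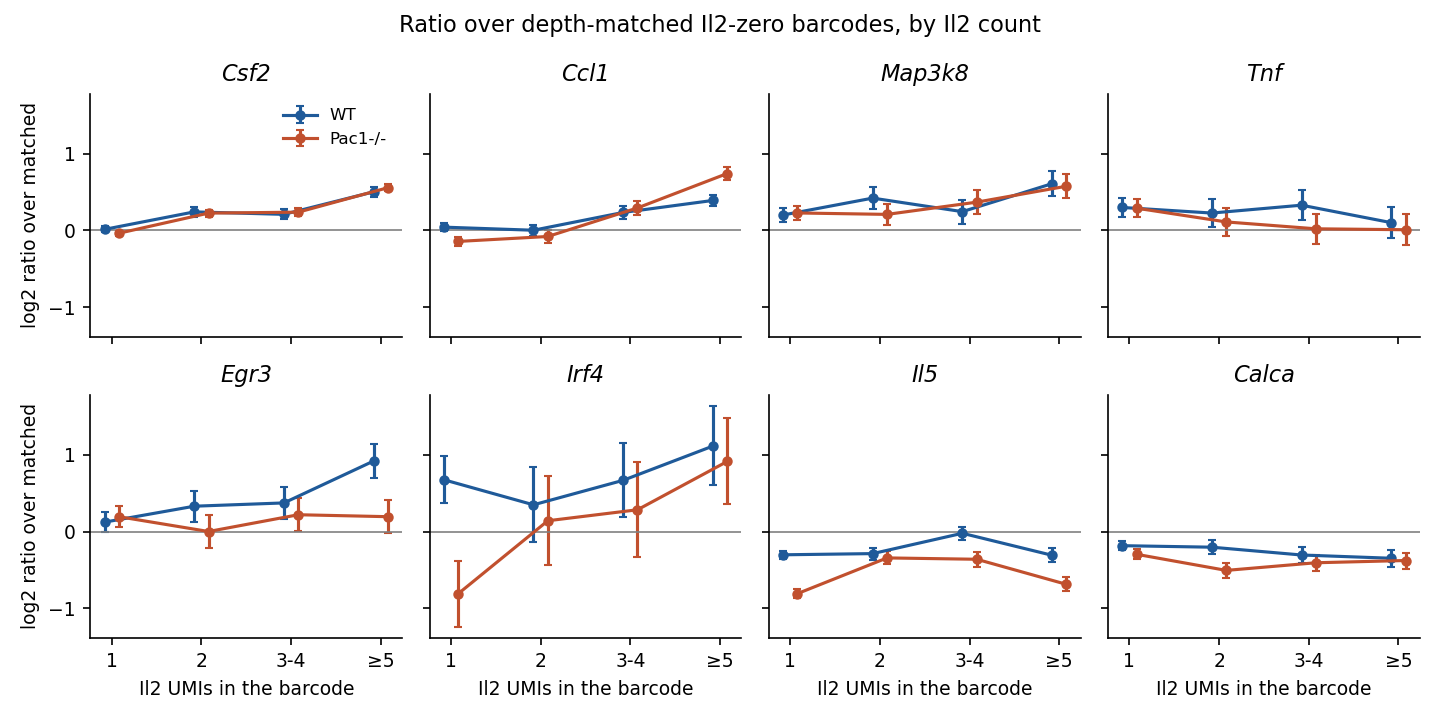
Log2 ratio over depth-matched Il2-zero barcodes for 8 genes, by Il2 UMIs in the barcode, with exact 95% counting intervals (WT blue, Pac1-/- red). Csf2, Ccl1 and Map3k8 are highest at 5 or more Il2 UMIs in both libraries, Tnf is not, and Il5 and Calca lie below 0.

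Clusters made within each library without Il2 differed in how many of their barcodes carried it. They are given by number and leading genes and were not named. After thinning to 2000 UMIs, WT cluster 6, led by Tnf, Cd69, Tnfsf9, Klf10 and Cd226, had Il2 in 13.1% of barcodes (10.9 to 15.5), and WT cluster 1, led by Il5, Crem, Calca, Akap12 and Cxcl3, in 2.66% (1.79 to 3.80). The interval of cluster 6 overlapped those of WT cluster 8, led by Igkc, Cd74 and H2-Aa (12.9%, 9.47 to 17.1), and cluster 3, led by Il4, Gadd45b and Ccl1 (11.2%, 9.19 to 13.4). Pac1-/- cluster 5, also led by Tnf, had 10.3% (8.21 to 12.7), near the 9.88% of its library. WT cluster 1 had a median of 4189.5 UMIs, and cluster 5, led by Hspa1b and other heat shock genes with 4185 UMIs, had 9.15% (7.34 to 11.2). In Pac1-/-, cluster 7, led by Scgb1a1, Il5, Il13, Crem and Plaur, had 3.99% (2.46 to 6.098) at a median of 5642 UMIs, and cluster 4, led by Dnajb1 and Hspa1b, 13.9% (11.5 to 16.5) at 5634.5. Cluster 0, led by Txnip, was near cluster 7 at 5.54% (4.34 to 6.95) and 5331.5 UMIs. Between clusters 1 and 5 in WT and clusters 7 and 4 in Pac1-/- the share differed by more than counting error in each library. Il5 in a leading position did not alone go with a low share: the deep WT cluster 0, led by Nr4a3, Ccl4, Ramp3 and Il5, had 10.3% and the deep Pac1-/- cluster 2, led by Nr4a3, Il5 and Nrip3, 13.9%. As counted, WT clusters 0 and 6 held 34.5% and 20.1% of all Il2-positive barcodes but 17.6% and 10.4% of kept ones, and Pac1-/- clusters 2 and 5 held 29.6% and 20.2% against 14.6% and 10.7%.

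**Figure D4:**
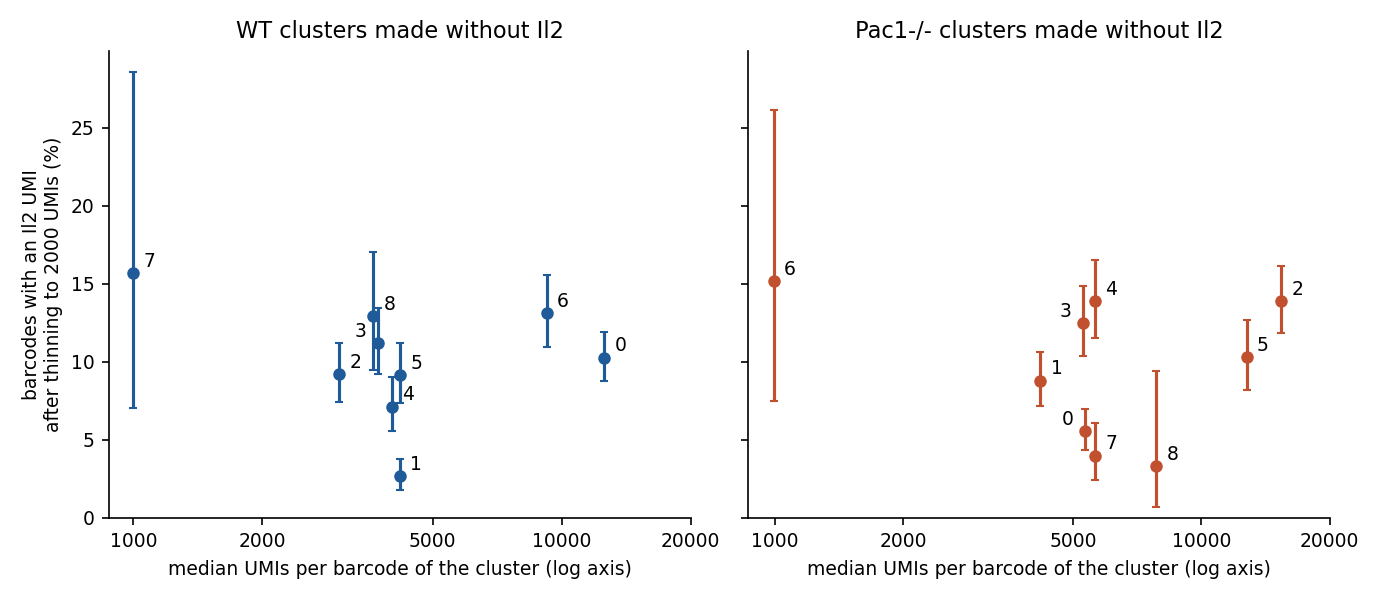
Percent of barcodes with Il2 after thinning to 2000 UMIs, with exact 95% intervals, against the median depth of each cluster with at least 50 barcodes left (log axis), numbered within each library. WT cluster 1 at 2.66% lies below the other WT clusters, and Pac1-/- cluster 7 at 3.99% lies below cluster 4 of like depth but overlaps cluster 0; few barcodes were left of WT cluster 7 and Pac1-/- cluster 6.

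The same genes were then read between the libraries. Within Il2-positive barcodes, 411 of 11742 genes with at least 30 UMIs over both libraries were more than 2-fold higher (3.5%) and 377 more than 2-fold lower (3.21%) in the Pac1-/- library, with no replicate check, and the median gene stood at 0.18. Taken relative to that median gene, the balance turned, with more genes lower than higher. Egr3 was at 85.9 CPM in Pac1-/- and 130 in WT (-0.60, -0.68 to -0.51), beside -0.49 in matched Il2-zero barcodes. Tnf was at 108 and 139 CPM (-0.37, beside -0.32), and Tagap at 30.2 and 50.6 CPM (-0.74, beside -0.52). Cd69, at 1756 and 1585 CPM (0.15, beside 0.11), was below the median gene. All 15 NFAT and Egr target genes and all 14 NF-kB genes lay below the median gene, with list medians of -0.37 and -0.25. So did all 9 CGRP response genes (-0.56). In matched Il2-zero barcodes these medians were -0.46, -0.31 and -0.42. Not all of these genes were lower in Pac1-/-: ratios above 0 included Nfkbia (0.16, 0.15 to 0.17), Icos (0.16, 0.10 to 0.22) and Perp (0.17, -0.19 to 0.54). The study named the CGRP genes as higher or more accessible in WT after CGRP. Their direction here was therefore largely set beforehand, and no conclusion is drawn from it. Csf2 was higher in Pac1-/- at 1669 and 1288 CPM (0.37, beside 0.28), and Il5 lower at 346 and 658 CPM (-0.92, -0.96 to -0.89, beside -0.69). Irf4 was more than 2-fold lower in Il2-positive barcodes (-1.33, -1.55 to -1.12) and at -0.59 (-0.86 to -0.33) in the matched ones.

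The largest differences between libraries lay outside the activation genes. Highest in Pac1-/- by the nearer interval bound were Zfp990, Mmp16, Nefl, Gm7324, Gm13166, Gm47015, Ifi208, Cntnap2, Lgals3 and Vmn2r96, and lowest were Dusp2, Eps8l1, A230059L01Rik, Gm43305, Gm42031, Gm10076, Dynlt1b, Olfr889, Rab6b and Rpgrip1. Zfp990 (chr4:145510759-145539188) had 0 UMIs in WT Il2-positive barcodes and 1526 in Pac1-/-, where it was in 45.7% of them. Lgals3, which encodes galectin-3, was at 86.8 CPM in Pac1-/- and 8.73 in WT (3.31), beside 3.19 in Il2-zero barcodes. Gm43305 (chr14:54292443-54297456) was at 74.7 and 1431 CPM (-4.26, beside -4.35). In matched Il2-zero barcodes all 20 were also more than 2-fold apart in the same direction. The sizes differed for some, such as Olfr889 at -3.34 beside -2.16 and A230059L01Rik at -5.78 beside -4.85.

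**Figure D5:**
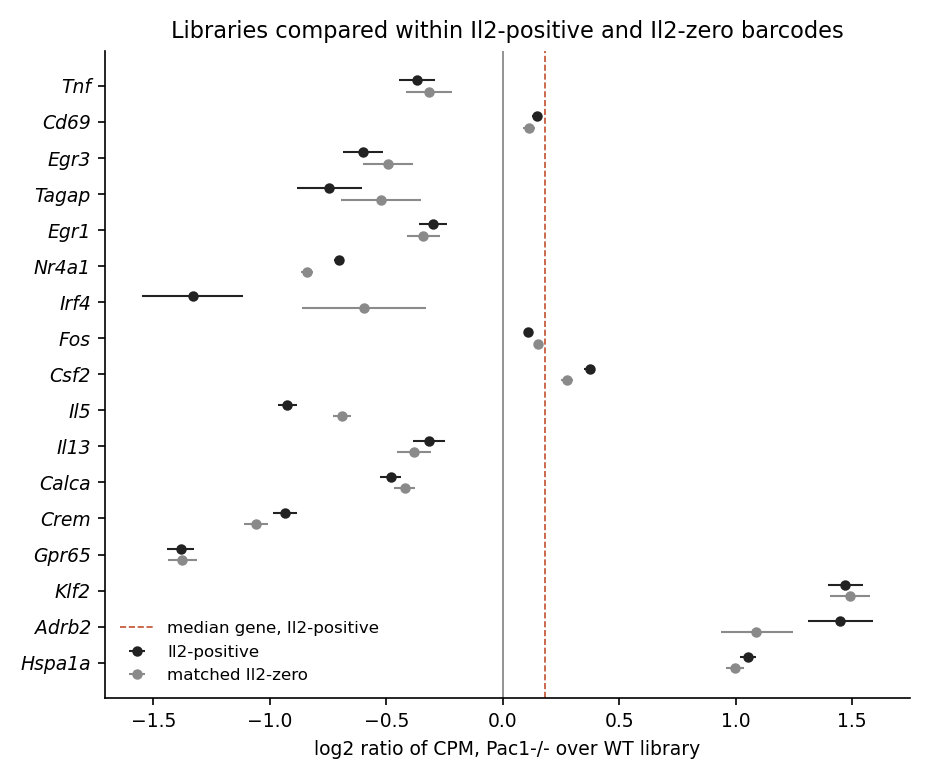
Log2 ratio of CPM in the Pac1-/- over the WT library within Il2-positive (black) and matched Il2-zero barcodes (grey), with exact 95% counting intervals; the dashed line is the median gene at 0.18. Irf4 (-1.33 and -0.59) and Il5 (-0.92 and -0.69) are among those that differ between the sets.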

How the data were processed

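Gene counts (UMIs) of 1 WT and 1 Pac1-/- 10x 3′ library were used as deposited by the authors, who made them with Cell Ranger against mm10 (version 6.1.1 in the submitters' processing notes, 4.0.0 in the file header). Barcodes with at least 500 genes and at most 10% mitochondrial UMIs were kept, and Il2-positive ones taken. The members, gene lists and comparisons were chosen with earlier results of these data known. Each Il2-positive barcode was paired with 1 Il2-zero barcode of its library nearest in UMIs without Il2. Summed counts of genes with at least 30 UMIs were compared as log2 ratios of CPM, with exact conditional binomial 95% intervals; CPM had Poisson and shares Clopper-Pearson intervals. These cover counting error only, and there is no test, since each genotype has 1 library. Named genes were the activation markers, list members, the 15 highest and 10 lowest ratios common to both libraries (the value nearer 0, both intervals leaving out 0), and the 10 largest genotype ratios in each direction by the nearer interval bound. Thinning drew 2000 UMIs per barcode. Doublets were predicted from 2 simulated doublets per cell, at 0.8% per 1000 barcodes, and kept in the main values. Clusters used 2000 variable genes without Il2, 30 components, 15 neighbours and Leiden resolution 1 (leidenalg 0.10.2 and scikit-learn 1.9.0, with scipy 1.17.1 and numpy 2.4.6 under Python 3.11.15). The ratio code was tested on simulated data. Promoter sequences came from RefSeq (GRCm38.p6).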

Additional observations from a re-analysis of the deposited data

Results flagged for a closer look

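The ratio of Il2-positive over matched barcodes lay on opposite sides of 0 in the 2 libraries, with both intervals leaving out 0, for 5 genes; these differences were not tested. As the Pac1-/- minus the WT log2 ratio they were -5.64 for Ccl4, -3.71 for Ccl3, -2.68 for Il17a, -1.96 for Hbb-bs and -0.31 for Cd27. Ccl4, a chemokine, had 193 of its 202 WT Il2-positive UMIs in 1 barcode, and Ccl3 85 of 90. Hbb-bs, a haemoglobin gene, had 935 of 1021 WT and 1553 of 1654 Pac1-/- UMIs in 1 barcode each, and after thinning its ratio was below 0 in both libraries (-0.68 in WT and -1.69 in Pac1-/-). Il17a had 144 of 269 Pac1-/- matched UMIs in 1 barcode. After thinning, its ratios were 1.68 (0.16 to 3.48) in WT and -1.90 (-2.83 to -1.06) in Pac1-/-. Cd27, a costimulatory receptor, was spread over 602 WT and 645 Pac1-/- Il2-positive barcodes, and after thinning its intervals included 0 in both libraries (0.12, -0.17 to 0.41, and -0.30, -0.62 to 0.02). The thinned Pac1-/- intervals of Ccl3 (-2.31 to 1.71) and Ccl4 (-1.94 to 0.81) also included 0.

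Il2 was also found in barcodes removed by the filter, which no comparison used: in 3.92% of 2472 WT barcodes (95% interval 3.19 to 4.77) and 4.49% of 2408 Pac1-/- barcodes (3.69 to 5.39), at median depths of 599 and 596 UMIs. A count of 0 would have allowed up to 0.121% and 0.125%.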

How the results depend on the processing

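No paired analysis was possible because each genotype has 1 library. Planned matching to 3 Il2-zero barcodes was not run, since Pac1-/- had 5278 and needed 5427. Pairs within 10% of depth, barcodes of ordinary depth and the 1.1-fold rule were chosen after seeing the data. The deepest Il2-positive barcodes lacked partners of like depth; the cause of each shift was not tested.

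The share of Il2-positive barcodes in WT and Pac1-/- was 22.0% and 27.5% with at least 1000 genes, 17.6% and 23.0% without predicted doublets, 14.7% and 19.3% at 2000 UMIs to 2 times the median, 9.10% and 9.88% thinned, and 8.16% and 10.6% with at least 2 Il2 UMIs. The Il2 log2 ratio between libraries was 0.038 thinned.

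Genes more than 2-fold higher in both libraries numbered 0 without predicted doublets, with at least 2 Il2 UMIs, with no matching and at 100 UMIs per gene, 2 thinned and 3 at 10 UMIs per gene. Genes lower numbered 6 with at least 1000 genes and at ordinary depth, 1 without other cell types, 2 thinned and at 100 UMIs per gene, 5 with at least 2 Il2 UMIs, 17 with weighting over depth deciles, 35 with no matching and 29 at 10 UMIs per gene.

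Over matched barcodes, WT Tnf was 0.44 without doublets, 1.06 at ordinary depth, 0.55 thinned and 0.63 in close pairs, and Pac1-/- Tnf was 0.47 thinned, 0.052 with at least 2 Il2 UMIs, 0.44 with no matching and 0.57 in close pairs. WT Cd69 was 0.25 without doublets, 0.40 at ordinary depth, 0.34 thinned, 0.27 with at least 2 Il2 UMIs, 0.24 weighted, 0.28 with no matching and 0.36 in close pairs. Pac1-/- Cd69 was 0.27 without doublets, 0.26 at ordinary depth, 0.18 weighted, 0.27 with no matching and 0.30 in close pairs. WT Egr3 was 0.52 with at least 2 Il2 UMIs, and Pac1-/- Egr3 was 0.39 at ordinary depth, 0.40 with no matching and 0.37 in close pairs. WT Tagap was 0.83 at ordinary depth, and Pac1-/- Tagap was 0.32 there, 0.49 thinned and 0.30 with no matching.

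Directions turned for the WT AP-1 median (-0.013 at ordinary depth, -0.020 in close pairs), the Pac1-/- chemokine median (0.030 at ordinary depth, 0.0059 thinned, 0.041 in close pairs) and Pac1-/- Il13 (0.23 with at least 2 Il2 UMIs). Pac1-/- Tagap was -0.016 weighted over depth deciles, and Pac1-/- Irf4, near 0 as reported, kept its sign in 5 of 10 settings (-0.41 to 0.39).

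Between libraries, genes lower in Pac1-/- numbered 243 at ordinary depth, 212 thinned and at 100 UMIs per gene, and 567 relative to the median gene, and genes higher 223 at 100 UMIs per gene and 234 relative to the median gene. Tnf was -0.47 without doublets, -0.81 at ordinary depth, -0.45 thinned, -0.47 with at least 2 Il2 UMIs and -0.55 relative to the median gene. Cd69 was 0.10 without doublets, 0.010 at ordinary depth, 0.026 thinned, 0.12 with at least 2 Il2 UMIs and, turning its direction, -0.032 relative to the median gene. Egr3 was -0.48 at ordinary depth, -0.72 with at least 2 Il2 UMIs and -0.78 relative to the median gene, and Tagap -0.90 at ordinary depth and -0.92 relative to the median gene.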

Other observations

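Heat shock and cell cycle genes were also compared between Il2-positive barcodes and their partners. None of 10 heat shock genes and none of 7 cycling genes passed the 1.1-fold rule in either direction (Hspb1, described above as higher in both libraries, was not on the list), with medians of -0.03 and -0.16 in WT and -0.01 and -0.02 in Pac1-/-. Between the libraries, within Il2-positive barcodes, the heat shock list had a median of 0.40, above the 0.18 of the median gene, and 0.37 in matched Il2-zero barcodes. Hspa1a was at 1.05, beside 0.996 in the matched barcodes.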
